A study of Mus musculus with 4 samples.

Results

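Genes of the BMP and TGF-beta signalling pathway were compared in the dentate gyrus, the part of the hippocampus that holds the granule neurons, between C57BL/6 mice that lack Eed conditionally (Eed cKO) and wild-type (WT) mice, both at postnatal day 14. The genes were chosen by symbol, as ligands, receptors, Smads, Id genes and extracellular regulators of the family, and 67 of the 18042 genes in the deposited table bear such a symbol. Eed is a core subunit of Polycomb repressive complex 2, which methylates histone H3 at lysine 27 and keeps many developmental genes silent. Each group held 2 libraries, which the series' design text calls biological replicates. The sources used here name no Cre line, deleted exons, sex or litter, so which cells lost Eed, and when, is unknown. Whether each library is 1 animal or a pool is likewise not stated.

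In this pathway a secreted dimer of the BMP, GDF, activin or TGF-beta family brings together type I and type II receptor kinases, and the type I receptor phosphorylates receptor Smads. These join Smad4, enter the nucleus and switch on targets such as the Id genes, which encode inhibitors of basic helix-loop-helix factors. Antagonists such as noggin and chordin bind BMPs outside the cell and keep them from their receptors. In the mouse dentate gyrus, BMP signalling is known for holding neural stem cells in quiescence, and noggin for opposing it.

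The table gives only group means, but these lie on a lattice from which the counts of each library could be read back. The libraries are called Eed cKO A, Eed cKO B, WT A and WT B, and held between 17263273 and 17789587 counts. Eed had 133 and 142 counts in Eed cKO A and B, against 251 and 301 counts in WT A and B, so it fell to 50.2% of WT (limma, log2 fold change -0.98 ± 0.14 SE, adjusted p = 0.0189). The libraries also differed in ways the labels do not name. Xist, the RNA that coats the silenced X in females, reached 3809 counts in Eed cKO A, against 8 in Eed cKO B and 11 and 8 in WT A and B. Ttr, a choroid plexus transcript, was low in WT B, with 35706 and 23697 counts in Eed cKO A and B, against 33234 and 110 counts in WT A and B. Each library is left out in turn below. All 8 markers of granule neurons were detected.

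Of the 67 pathway genes, 59 passed the filter, which asked for 10 normalized counts or more in 2 or more libraries, and 7 of these passed the threshold of an adjusted p of 0.05. A BMP ligand (Bmp6), the activin-like ligand Gdf11, the BMP type I receptor gene Acvr1, the co-receptor gene Tgfbr3 and the target gene Id3 fell in Eed cKO, and the BMP antagonist genes Chrdl1 and Chrd rose. The calls come from limma on log2(normalized count + 1), adjusted over all 15020 genes tested. That made 11.9% of the tested members called, against 6.44% of all tested genes. Split by direction, 3.39% of members rose and 8.47% fell, against 3.54% and 2.9% of all tested genes. The median log2 fold change was -0.05 over the 59 members and -0.00 over all tested genes, both close to 0. The groups did not overlap in 61.0% of the tested members, against 56.8% of all tested genes. An unadjusted p under 0.05 in limma was reached by 24 of the 59 tested members, 9 higher and 15 lower. Among all 15020 tested genes it was reached by 3722, or 24.8%, with 12.4% in each direction.

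The promoters of 3 called members are shown because they represent a ligand that fell, a target that fell and an antagonist that rose. Each window runs from 250 bases before to 50 bases after the RefSeq start of the gene, 5′ to 3′ on the gene's strand, from RefSeq on GRCm38.p6, with CG dinucleotides in capitals.
Bmp6, chr13:38345466-38345765, plus strand: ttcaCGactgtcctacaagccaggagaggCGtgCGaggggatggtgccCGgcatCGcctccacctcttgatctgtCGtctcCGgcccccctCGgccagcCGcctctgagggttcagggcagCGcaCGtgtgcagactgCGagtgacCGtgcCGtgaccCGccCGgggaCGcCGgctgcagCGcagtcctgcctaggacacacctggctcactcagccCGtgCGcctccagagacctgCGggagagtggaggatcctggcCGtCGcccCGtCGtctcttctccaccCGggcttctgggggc
Id3, chr4:136143572-136143871, plus strand: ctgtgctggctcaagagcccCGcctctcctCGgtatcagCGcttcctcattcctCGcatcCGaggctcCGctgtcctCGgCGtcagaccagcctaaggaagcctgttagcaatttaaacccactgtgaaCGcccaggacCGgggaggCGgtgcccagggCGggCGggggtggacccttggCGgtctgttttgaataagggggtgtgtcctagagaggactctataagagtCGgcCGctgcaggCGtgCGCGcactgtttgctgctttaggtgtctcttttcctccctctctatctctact
Chrd, chr16:20732877-20733176, plus strand: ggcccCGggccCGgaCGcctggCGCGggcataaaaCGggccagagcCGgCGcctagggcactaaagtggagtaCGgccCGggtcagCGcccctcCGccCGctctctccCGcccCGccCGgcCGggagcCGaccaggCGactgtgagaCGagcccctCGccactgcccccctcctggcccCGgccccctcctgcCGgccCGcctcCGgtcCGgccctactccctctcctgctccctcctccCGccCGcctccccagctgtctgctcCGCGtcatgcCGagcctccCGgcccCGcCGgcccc

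All 3 windows hold more CG dinucleotides than the median of 7 over all 32851 windows. The Bmp6 window holds 27, a number reached by 15.5% of all windows, that of Id3 holds 19 (28.1%) and that of Chrd holds 34 (7.73%). Of the other called members, the Acvr1 window holds 51 CG dinucleotides, a number reached by 0.715% of all windows, and the Gdf11 window holds 36 (6.23%). Windows were found for 48 of the 67 members, 60 windows in all, with a median of 22.5 CG dinucleotides. Members that were not called lay at both ends. The Acvr2a and Acvr1b windows hold 54 and 51, while those of Ltbp3 and Bmp5, whose values are given below, hold 3 and 4. The letters GGCGCC, a motif known to bind BMP Smads, read the same on both strands and occur in 25% of the member windows against 11.9% of all windows. The motif itself contains a CG, of which the member windows hold more, and some windows of the same gene overlap. The part of CG content in these shares was not tested. Among the called members with a window, the letters occur in Chrd alone, and a match is only a match of letters.

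Among the ligands, 2 of 11 tested BMP and GDF genes fell and none rose. Bmp6, a BMP that signals through Acvr1 (GRCm38 chromosome 13, 38345107 to 38500302, plus strand, protein coding), had 226 and 190 counts in Eed cKO A and B, against 484 and 520 counts in WT A and B. Both Eed cKO libraries lay well under both WT libraries. The mean fell to 208 ± 24.6 normalized counts in Eed cKO, against 499 ± 27.3 in WT (SD, n = 2 each), or 41.7% of WT (limma, log2 fold change -1.26 ± 0.12 SE, adjusted p = 0.00872). The Bmp6 annotation shares 5.74% of its exon bases with Txndc5 on the opposite strand, and no source used here states whether the counting used strand.

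Gdf11, a relative of myostatin that signals through activin receptors (chromosome 10, 128882295 to 128891718, minus strand), showed the least spread of the called members. It had 600 and 590 counts in Eed cKO A and B, against 893 and 891 counts in WT A and B. Its mean was 595 ± 4.51 normalized counts in Eed cKO and 886 ± 2.22 in WT (SD, n = 2 each), or 67.2% of WT (limma, log2 fold change -0.57 ± 0.07 SE, adjusted p = 0.0141).

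Of the other ligands, Gdf10 and Bmp5 had higher values in both Eed cKO libraries without passing in limma. Gdf10, a BMP3-like protein, had 1136 and 913 counts in Eed cKO A and B, against 745 and 698 counts in WT A and B (limma, log2 fold change 0.51 ± 0.11 SE, adjusted p = 0.0602). Bmp5 had 109 and 57 counts in Eed cKO A and B, against 26 and 29 counts in WT A and B (3.04-fold, limma adjusted p = 0.0609). Its groups did not overlap, but the Eed cKO libraries lay far apart. DESeq2 called both genes higher (adjusted p = 0.0154 for Gdf10 and 0.0196 for Bmp5), and the authors' deposited table gives adjusted p = 0.0168 and 0.0212. An antisense gene, Gm26903, covers 46.7% of the exon bases of Bmp5, so its reads are uncertain.

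Bmp4 and Bmp7, the BMP genes nearest to Bmp6 in level per exon length in WT, did not pass. Bmp4 had 182 and 220 counts in Eed cKO A and B and 239 and 251 in WT A and B. Bmp7 had 456 and 421 counts in Eed cKO A and B and 368 and 509 in WT A and B, so the WT libraries enclosed the Eed cKO ones. Bmp2 and Bmp3 did not pass either (limma, log2 fold change 0.20 ± 0.25 SE and 0.55 ± 0.22 SE, adjusted p = 0.668 and 0.195). The row named Gdf1 carries the identifier ENSMUSG00000087408, which GENCODE M21 names Cers1, a ceramide synthase gene that shares 42.5% of its exon bases with Gdf1. Its 1366 and 1033 counts in Eed cKO A and B and 1014 and 1166 counts in WT A and B therefore cannot be assigned to Gdf1.

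The 8 members under the filter were all ligands: Bmp8a, Bmp8b, Bmp10, Bmp15, Gdf2, Gdf5, Gdf7 and Gdf15. Only Gdf15, a stress-induced member of the family, had counting intervals that did not overlap between groups. It had 10 and 11 counts in Eed cKO A and B, against 2 and 1 counts in WT A and B, or sums of 21 (exact 95% Poisson interval 13.0 to 32.1) in Eed cKO and 3 (0.619 to 8.77) in WT. These intervals cover counting error only, and DESeq2 gave adjusted p = 0.345. The near-identical paralogs Bmp8a and Bmp8b had summed counts of 2 and 15 in Eed cKO and 2 and 17 in WT, and their reads may have been split between them.

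None of the activin, inhibin and TGF-beta genes passed. Inhba, which encodes the subunit of activin A, had 175 and 191 counts in Eed cKO A and B, against 98 and 137 counts in WT A and B (limma, log2 fold change 0.66 ± 0.20 SE, adjusted p = 0.112). Its groups did not overlap, and it was called higher without WT B (adjusted p = 0.0397). Inhbb and Inha had log2 fold changes of 0.31 ± 0.18 SE and 0.06 ± 0.11 SE.

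Tgfb2, the most abundant of the TGF-beta genes per exon length, varied within the groups rather than between them. It had 1850 and 1315 counts in Eed cKO A and B, against 1807 and 1066 counts in WT A and B. The libraries stand in the same order as for the choroid plexus transcript Ttr, whose counts are given above. The part of choroid plexus RNA in the Tgfb2 values was not tested. Tgfb3 had 282 and 265 counts in Eed cKO A and B, against 343 and 272 counts in WT A and B (limma, log2 fold change -0.15 ± 0.14 SE, adjusted p = 0.554). Its direction turned without WT A, to a log2 fold change of 0.0131. Tgfb1 had a log2 fold change of 0.14 ± 0.14 SE (limma adjusted p = 0.592).

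**Figure D1:**
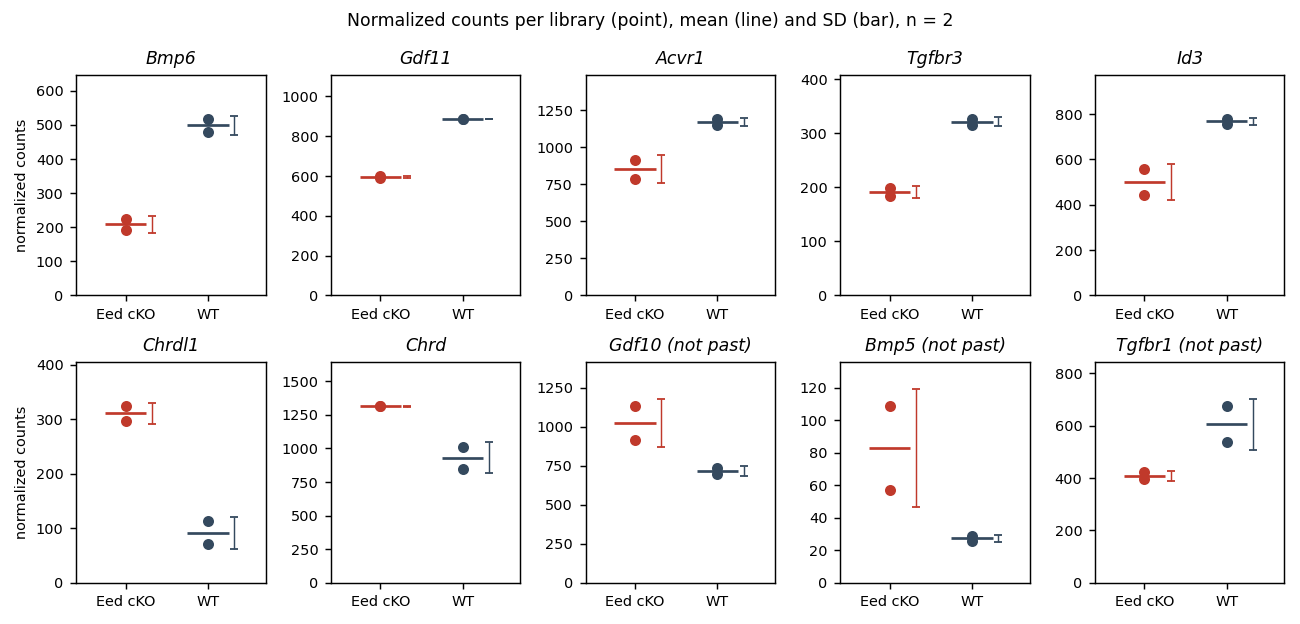
Normalized counts (vertical axis, from 0) of the 7 called members and of Gdf10, Bmp5 and Tgfbr1, with each library as a point, the group mean as a line and the SD as a bar (n = 2), Eed cKO in red and WT in dark blue. Bmp6 lies at 208 in Eed cKO and 499 in WT, while the Eed cKO points of Bmp5 lie far apart.

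Among the receptors, 1 of 7 type I receptor genes fell and 6 did not pass, and 6 of the 7 had a negative log2 fold change, with a median of -0.35. Acvr1, a type I receptor that responds to BMP6 and BMP7 (chromosome 2, 58388644 to 58567157, minus strand), had 919 and 782 counts in Eed cKO A and B, against 1163 and 1196 counts in WT A and B. Its mean was 851 ± 93.3 normalized counts in Eed cKO and 1172 ± 28.0 in WT (SD, n = 2 each), or 72.6% of WT (limma, log2 fold change -0.47 ± 0.09 SE, adjusted p = 0.0452). The call was lost without WT B, at adjusted p = 0.0782 in limma.

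Tgfbr1, the main type I receptor of TGF-beta, and Bmpr1a, a main type I receptor of BMPs, lay lower in both Eed cKO libraries but missed the threshold. Tgfbr1 had 423 and 394 counts in Eed cKO A and B, against 542 and 678 counts in WT A and B (limma, log2 fold change -0.56 ± 0.13 SE, adjusted p = 0.0618). DESeq2 called it lower (adjusted p = 0.0273). Bmpr1a had 841 and 873 counts in Eed cKO A and B, against 1036 and 1176 counts in WT A and B (limma, log2 fold change -0.35 ± 0.09 SE, adjusted p = 0.0763). Without WT A, both were among the calls in limma. Acvr1b, the activin receptor and the most abundant receptor of the set per exon length, differed little, with 2350 and 2465 counts in Eed cKO A and B and 2269 and 2330 counts in WT A and B. The 95% interval of its log2 fold change ran from -0.09 to 0.24.

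No type II receptor gene passed. Bmpr2, the BMP type II receptor, had 2428 and 2546 counts in Eed cKO A and B, against 2756 and 2749 counts in WT A and B (limma, log2 fold change -0.14 ± 0.07 SE, 95% interval -0.30 to 0.02, adjusted p = 0.263). The activin receptor gene Acvr2a had 1090 and 1048 counts in Eed cKO A and B, against 721 and 1076 counts in WT A and B, and was called higher only when WT B was left out. Tgfbr2 had a log2 fold change of -0.05 ± 0.13 SE.

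Of the co-receptor genes, Tgfbr3 fell and Eng did not pass. Tgfbr3 encodes betaglycan, which presents TGF-beta to its receptors and also binds inhibin (chromosome 5, 107106570 to 107289629, minus strand). It had 199 and 183 counts in Eed cKO A and B, against 330 and 317 counts in WT A and B. Its mean was 191 ± 10.50 normalized counts in Eed cKO and 321 ± 7.82 in WT (SD, n = 2 each), or 59.5% of WT (limma, log2 fold change -0.75 ± 0.11 SE, adjusted p = 0.0200). The Tgfbr3 annotation shares 4.54% of its exon bases with Gm43422 on the same strand. Eng, the endothelial co-receptor endoglin, had a log2 fold change of -0.16 ± 0.08 SE (limma adjusted p = 0.297).

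None of the 8 Smad genes passed. Smad2 and Smad3, which transmit TGF-beta and activin signals, had overlapping groups, with log2 fold changes of 0.03 ± 0.12 SE and -0.00 ± 0.11 SE. The groups did not overlap for the other receptor Smads. Of those that transmit BMP signals, Smad1 had 566 and 584 counts in Eed cKO A and B, against 499 and 484 counts in WT A and B (limma, log2 fold change 0.24 ± 0.08 SE, adjusted p = 0.149). Smad5 and Smad9 had log2 fold changes of -0.18 ± 0.08 SE and -0.29 ± 0.14 SE. Smad4, the shared partner, had 491 and 474 counts in Eed cKO A and B, against 633 and 540 counts in WT A and B (limma, log2 fold change -0.27 ± 0.10 SE, adjusted p = 0.181). Smad6, an inhibitory Smad that is itself induced by BMPs, had 45 counts in each Eed cKO library, against 83 and 74 counts in WT A and B (limma, log2 fold change -0.78 ± 0.20 SE, adjusted p = 0.0775). The other inhibitory Smad, Smad7, had a log2 fold change of -0.14 ± 0.09 SE.

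The 4 Id genes all had negative log2 fold changes, with a median of -0.27, and 1 of them fell. Id3 (chromosome 4, 136143497 to 136145755, plus strand) had 445 and 555 counts in Eed cKO A and B, against 787 and 759 counts in WT A and B. Its mean was 500.5 ± 80.0 normalized counts in Eed cKO and 768 ± 16.5 in WT (SD, n = 2 each), or 65.2% of WT (limma, log2 fold change -0.63 ± 0.12 SE, adjusted p = 0.0406). The limma call was lost without WT A (adjusted p = 0.0584) and without WT B (adjusted p = 0.0573), while edgeR kept it in both cases (adjusted p = 0.0356 and 0.0363). Id4 had 938 and 795 counts in Eed cKO A and B, against 1075 and 1259 counts in WT A and B, and missed the threshold (limma, log2 fold change -0.42 ± 0.12 SE, adjusted p = 0.0966). Id1 and Id2 had overlapping groups, with log2 fold changes of -0.09 ± 0.12 SE and -0.13 ± 0.12 SE. Summed over the 4 genes, Eed cKO A and B held 2873 and 2926 counts, against 3378 and 3878 counts in WT A and B.

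Of 12 extracellular antagonists and modulators, 2 rose and none fell, and 9 had a positive log2 fold change, with a median of 0.42. Chrdl1, the chordin-like BMP antagonist, showed the largest change of the called members (ENSMUSG00000031283; chromosome X, 143285674 to 143394262, minus strand). It had 298 and 323 counts in Eed cKO A and B, against 71 and 113 counts in WT A and B. The mean rose to 311 ± 19.0 normalized counts in Eed cKO, against 91.5 ± 29.9 in WT (SD, n = 2 each), which is 3.40-fold (limma, log2 fold change 1.79 ± 0.23 SE, adjusted p = 0.0145). The gene is X-linked, and the part of sex in its values was not tested. Xist was high in Eed cKO A alone, so giving that library its own term in limma only sets it aside. The log2 fold change of Chrdl1 was 1.85 with this term and also 1.85 without Eed cKO A, so the term cannot test sex.

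Chrd, which encodes chordin (chromosome 16, 20733127 to 20742384, plus strand), had 1319 and 1308 counts in Eed cKO A and B, against 856 and 1016 counts in WT A and B. The mean was 1314 ± 2.12 normalized counts in Eed cKO and 930 ± 116 in WT (SD, n = 2 each), or 1.41-fold (limma, log2 fold change 0.50 ± 0.10 SE, adjusted p = 0.0419). Thpo, on the opposite strand, shares 3.82% of the exon bases of Chrd.

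Other antagonist genes had higher values in Eed cKO without passing. Nog, which encodes noggin, had 225 and 177 counts in Eed cKO A and B, against 162 and 127 counts in WT A and B (limma, log2 fold change 0.48 ± 0.19 SE, adjusted p = 0.182). Grem1, which encodes gremlin, had 141 counts in Eed cKO A but 58 in Eed cKO B, against 51 and 40 counts in WT A and B, so its higher mean rests on Eed cKO A (limma adjusted p = 0.212). Fst, which encodes the activin antagonist follistatin, had 40 and 46 counts in Eed cKO A and B, against 28 and 30 counts in WT A and B (limma adjusted p = 0.224). Among the antagonists named so far, Grem1 thus has the widest spread between Eed cKO libraries. Fstl1, the most abundant of the class per exon length, had 1872 and 1659 counts in Eed cKO A and B, against 1498 and 1496 counts in WT A and B (limma adjusted p = 0.129). Fstl5, like Tgfb2, differed more within the groups, with 495 and 416 counts in Eed cKO A and B and 622 and 338 in WT A and B. Bmper, Fstl3, Fstl4 and Chrdl2 did not pass, with log2 fold changes between -0.49 and 0.54. Fstl3 was the 1 member that passed the filter through Eed cKO libraries alone.

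The 4 latent TGF-beta binding protein genes, most of whose products hold TGF-beta in the matrix, all had negative log2 fold changes, with a median of -0.39, and none passed. Ltbp2, which despite its name is not known to bind latent TGF-beta, had 7 and 17 counts in Eed cKO A and B, against 32 and 33 counts in WT A and B (limma, log2 fold change -1.47 ± 0.45 SE, adjusted p = 0.119). Ltbp4 had 1883 and 1712 counts in Eed cKO A and B, against 2086 and 2597 counts in WT A and B (limma adjusted p = 0.132). Bmp1, which despite its name is a procollagen proteinase that also cleaves chordin, had 1625 and 1371 counts in Eed cKO A and B and 1587 and 1747 counts in WT A and B (limma, log2 fold change -0.15 ± 0.10 SE, adjusted p = 0.420).

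**Figure D2:**
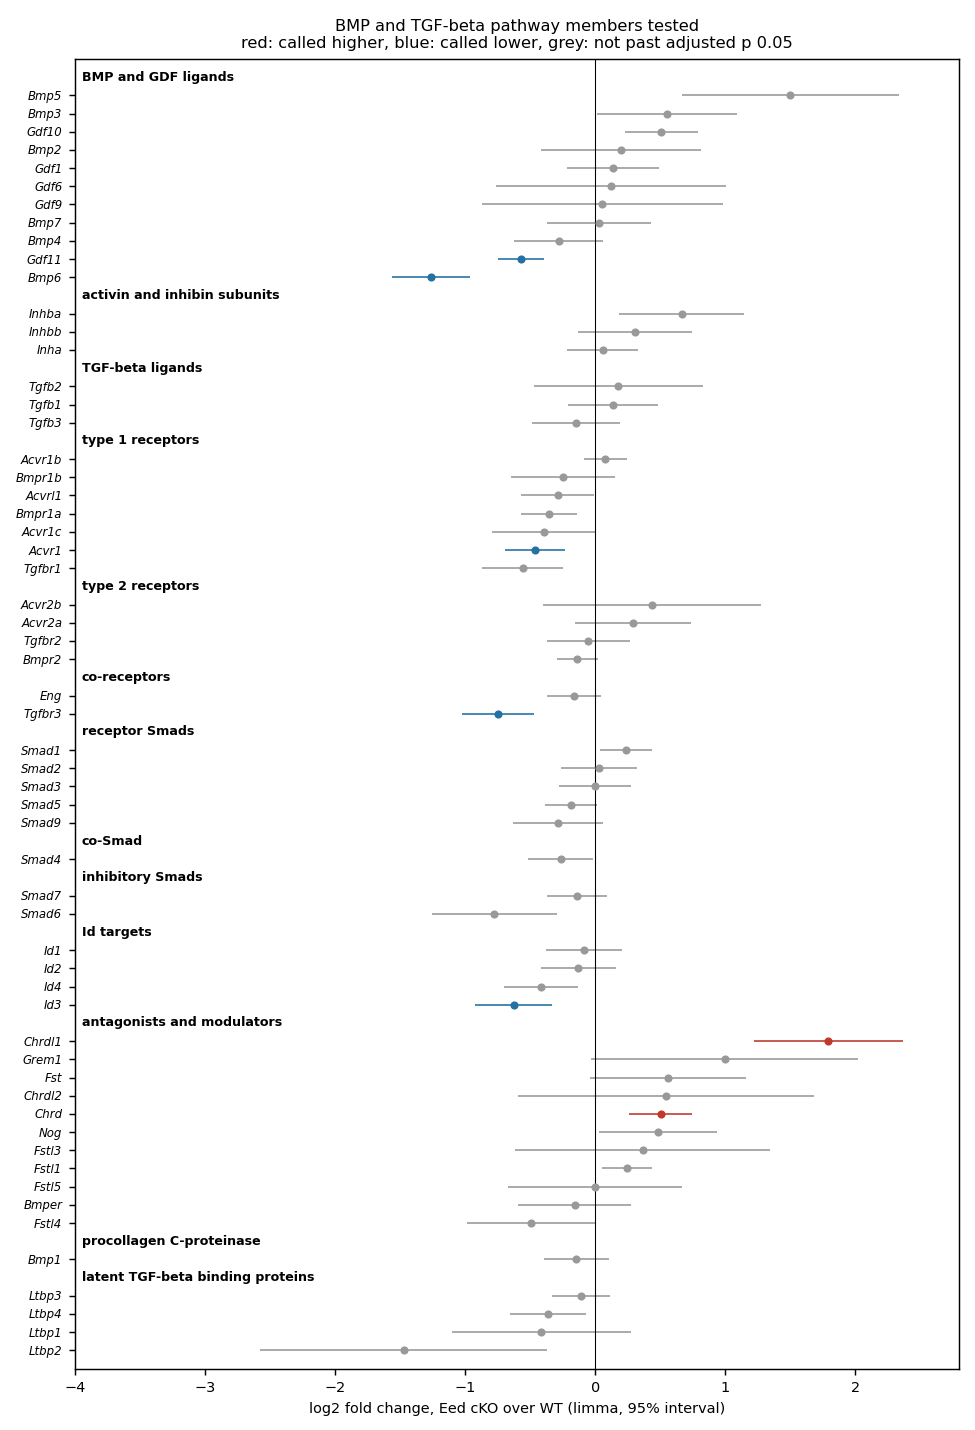
Change in Eed cKO relative to WT on the log2 scale (horizontal axis), with its 95% interval from limma for the tested members, by role, with 1 member not shown. The 2 members in red (Chrdl1 and Chrd) were called higher, the 5 in blue were called lower, and type I receptors, Id genes and latent TGF-beta binding proteins lie mostly left of 0 without most of them passing.

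Among the 59 tested members, Ltbp2 had the lowest level per kilobase of exon in Eed cKO, at 1.47 ± 0.871 normalized counts. In Eed cKO the highest were Acvr1b, with 545 ± 20.8 normalized counts per kilobase, and Id2, with 509 ± 16.7, against 517 ± 11.8 and 561 ± 92.8 in WT (SD, n = 2 each). In WT these neighbours stood within their spread. Id3 stood at 279 ± 44.7 normalized counts per kilobase in Eed cKO and 429 ± 9.23 in WT. Bmp6 stood at 53.4 ± 6.30 normalized counts per kilobase in Eed cKO, under Bmp7 (109 ± 5.69) and Bmp4 (89.5 ± 12.3). In WT it stood at 128 ± 7.01, with Bmp7 at 108 ± 25.1 and Bmp4 at 108 ± 4.19. Bmp6 was thus the highest of these 3 genes in WT, within the spread of Bmp7, and the lowest of them in Eed cKO. Among the antagonists, Chrd stood at 210 ± 0.339 normalized counts per kilobase in Eed cKO and 149 ± 18.6 in WT, and Nog at 119 ± 19.5 in Eed cKO and 84.7 ± 14.2 in WT. Chrdl1 stood at 46.0 ± 2.82 normalized counts per kilobase in Eed cKO and 13.5 ± 4.42 in WT.

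**Figure D3:**
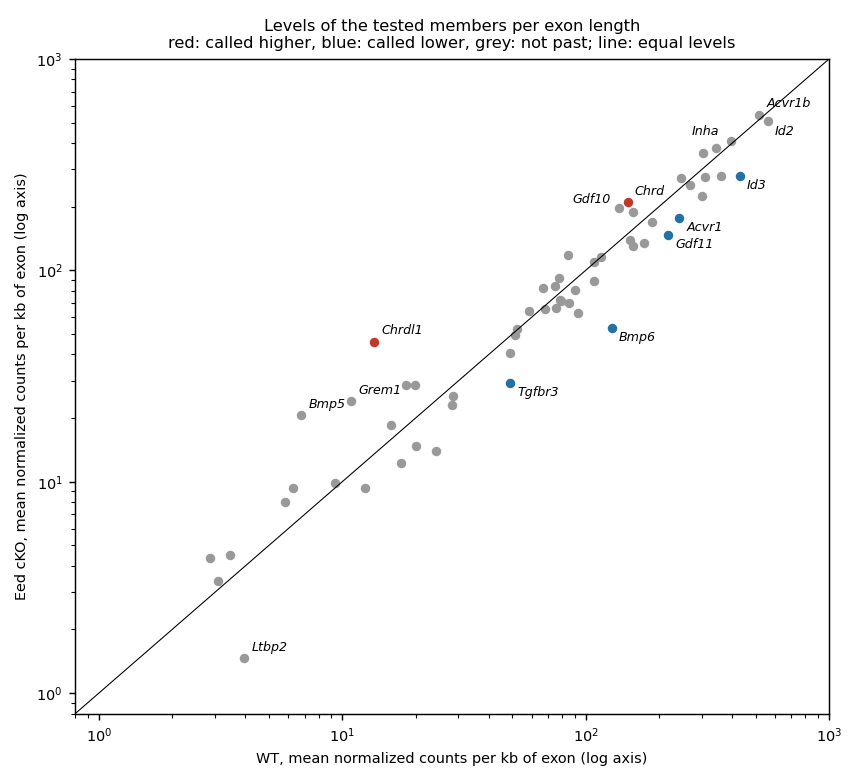
Mean normalized counts per kilobase of exon in Eed cKO (vertical, log axis) against WT (horizontal, log axis) for the 59 tested members, with called members in red (higher) and blue (lower) and a line of equal levels. Chrdl1 lies furthest above the line among the called members and Bmp6 furthest below it.

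A further list of 61 pathway genes outside the symbol rule held receptors' partners, matrix regulators, Smad regulators and targets. It also held ligands such as Nodal, Amh and Mstn, and the receptor gene Amhr2. Of these 61 genes, 60 are in the deposited table and 55 were tested. Of these, 4 rose, 1 fell and 50 did not pass, or 9.09% called against 6.44% of all tested genes, with a median log2 fold change of -0.05. Crim1, a transmembrane protein that binds BMPs, had 1355 and 1388 counts in Eed cKO A and B, against 1101 and 1032 counts in WT A and B (limma, log2 fold change 0.37 ± 0.07 SE, adjusted p = 0.0378). Vwc2, a chordin-domain BMP antagonist of the brain also called brorin, had 112 and 116 counts in Eed cKO A and B, against 68 and 57 counts in WT A and B (limma, log2 fold change 0.87 ± 0.18 SE, adjusted p = 0.0479). Both calls were lost without WT B (limma adjusted p = 0.0621 for Crim1 and 0.101 for Vwc2), and neither gene is called in the authors' deposited table. Other genes of the list whose products bind BMPs outside the cell did not pass, among them Twsg1 (limma, log2 fold change -0.26 ± 0.07 SE) and Nbl1 (0.06 ± 0.24 SE).

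The other called genes of this list were Tgfb1i1, Htra3 and Htra1. Tgfb1i1, a focal adhesion adaptor also called Hic-5, had 973 and 988 counts in Eed cKO A and B, against 641 and 579 counts in WT A and B (limma, log2 fold change 0.70 ± 0.08 SE, adjusted p = 0.0130). The secreted proteases Htra3 and Htra1, which bind TGF-beta family proteins, moved in opposite directions. Htra3 had 375 and 366 counts in Eed cKO A and B, against 218 and 241 counts in WT A and B (limma, log2 fold change 0.70 ± 0.11 SE, adjusted p = 0.0221). Htra1 had 3352 and 2945 counts in Eed cKO A and B, against 4279 and 4378 counts in WT A and B (limma, log2 fold change -0.45 ± 0.08 SE, adjusted p = 0.0343). DESeq2 called Rgma higher and Ctgf and Wfikkn2 lower beside these, but not Vwc2 (adjusted p = 0.135).

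Markers of several cell types moved as well, and in bulk tissue fewer cells of a type cannot be told apart from less RNA per cell. Of 12 markers of meningeal and perivascular fibroblasts, 9 fell, 1 (Dcn) rose and 2 did not pass. Their summed levels were 8642 and 9773 normalized counts in Eed cKO A and B, against 21338 and 26485 in WT A and B, or 6338 and 6250 against 8714 and 10930 without the most abundant, Ptgds. Of 8 pericyte and smooth muscle markers, the 3 contractile genes Acta2, Tagln and Myh11 fell. The others did not pass, with positive log2 fold changes for Rgs5, Kcnj8, Abcc9 and Cspg4 and a negative one for Pdgfrb. The sums of this list overlapped, at 7938 and 6783 normalized counts in Eed cKO A and B, against 7502 and 9330 in WT A and B. Without the most abundant, Rgs5, they were 2346 and 2389 against 3942 and 4343. Of 8 astrocyte markers 3 fell (Gja1, Gjb6 and Slc1a3), while Aqp4, Slc1a2 and Sox9 had negative log2 fold changes without passing. Gfap and Aldh1l1 had log2 fold changes of 0.09 and 0.03. The astrocyte sums were 63120 and 64058 normalized counts in Eed cKO A and B, against 79562 and 95490 in WT A and B. Without the most abundant, Slc1a2, they were 28545 and 28514 against 34785 and 43592. Of 8 granule neuron markers 4 fell (Prox1, Dsp, Lct and Stxbp6). The granule neuron sums were 5610 and 4989 normalized counts in Eed cKO A and B, against 9162 and 12167 in WT A and B. Without the most abundant, Prox1, they were 4687 and 4126 against 5813 and 7701. No marker of any of these lists was at 0. The part of these cell types in the lower levels of Bmp6, Gdf11, Acvr1, Tgfbr3 and Id3 was not tested.

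No endothelial or oligodendrocyte marker passed, and of 8 microglia markers Trem2 rose. The 8 choroid plexus markers summed to 37038 and 24665 normalized counts in Eed cKO A and B and to 34900 and 448 in WT A and B, and none passed. Without WT B, the library with few choroid plexus reads, the log2 fold changes were -1.21 for Bmp6, -0.57 for Gdf11, -0.77 for Tgfbr3, 2.13 for Chrdl1 and 0.63 for Chrd, and these 5 were still called. Id3 and Acvr1 had -0.65 and -0.44 without it and were not.

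**Figure D4:**
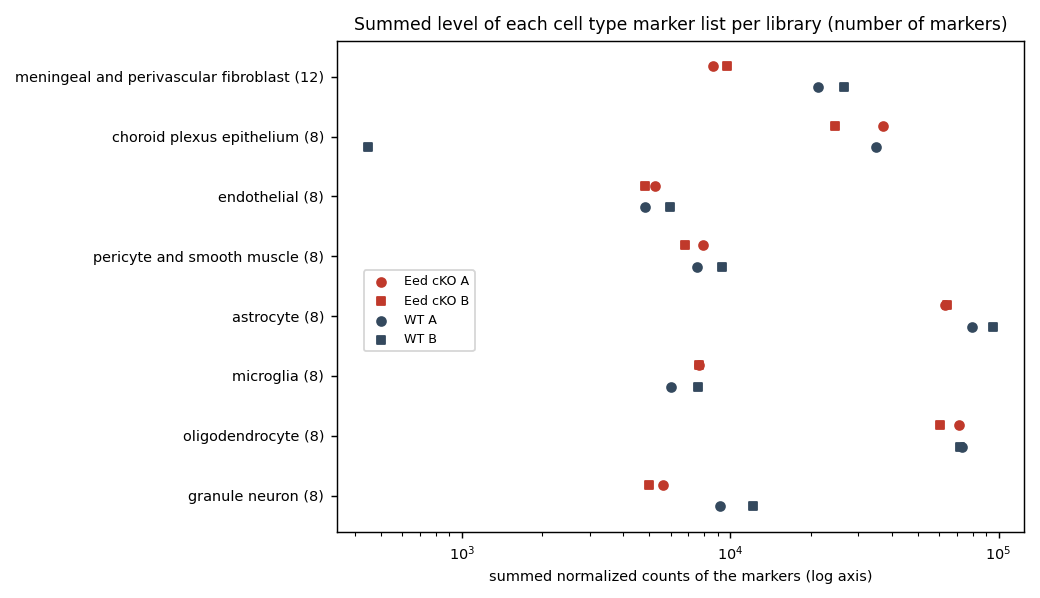
Summed normalized counts of each list of cell type markers (horizontal, log axis) in every library, Eed cKO in red and WT in dark blue, A as circles and B as squares. The fibroblast, astrocyte and granule neuron sums are lower in both Eed cKO libraries, and the choroid plexus sum is 448 in WT B.

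Every call among the members needed both Eed cKO libraries in limma, as did most calls over all genes. In these fits the lone library of a group is assumed to vary like the other group. Without Eed cKO A, 0 members were called (0.0474% of all genes). Without Eed cKO B, 0 members were called (0.21% of all genes). With edgeR, Bmp6 and Chrdl1 were called without Eed cKO A (1.32% of all genes), and Bmp6 was the 1 call without Eed cKO B (0.991% of all genes).

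Leaving out a WT library changed which members were called. Without WT A, limma called 2 members higher and 8 lower (10.1% of all genes; 11.6% in edgeR), with Bmpr1a, Id4, Ltbp4 and Tgfbr1 added and Id3 lost. Without WT B it called 4 higher and 3 lower (7.1% of all genes; 7.87% in edgeR), with Acvr2a and Inhba added and Acvr1 and Id3 lost. The 7 calls stood under pseudocounts of 0.5 and 5 (6.33% and 6.54% of all genes), a filter of 50 normalized counts (7.33%), TMM scaling and edgeR (6.65%). DESeq2 called 4 members higher and 6 lower, against 6.95% of all genes, 3.71% higher and 3.23% lower. In the authors' deposited table the same numbers of members are called, against 6.96%, 3.73% and 3.23% of all genes. Without a filter, 1 member was called higher and 3 lower, against 2.62% of all genes, 1.5% higher and 1.12% lower.

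Of the 119 values of the 7 called members under the alternatives, 80 kept the call and 39 lost it. None changed direction, which for groups that do not overlap is largely fixed when 1 library is left out. Of the 52 tested members that did not pass, 23 had a 95% interval inside a 1.5-fold change either way. Another 12 had an interval that reached past a 2-fold change, so a change of that size was not excluded for these, Bmp5 and Inhba among them.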

How the data were processed

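RNA-seq libraries of the dentate gyrus of 2 Eed cKO and 2 WT mice were grouped by sample title. Reads were handled with HISAT2 2.1.0, DESeq2 1.2.0 and GRCm38, per the submitters' processing notes, while no source used here gives the counter, strand setting or annotation. For each of 18042 genes, the authors deposited a mean signal of normalized counts per group, a log2 fold change with its error, a test score and p-values, raw and adjusted, per the file headers.

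Each deposited mean signal is the average of 2 counts, each over its size factor (0.996 to 1.01). Whole counts were recovered from these steps for 100% of genes, within a tolerance of 1e-08. Which replicate number a recovered library bears is unknown. The deposited values being normalized, the main test used limma 3.58.1 on log2(normalized count + 1), with a trend of variance on level, genotype as the only term, and Benjamini-Hochberg adjustment over 15020 genes; fold changes on this scale understate those of low genes. With 2 libraries a group, p-values rest on 2 residual and 4.00 prior degrees of freedom. edgeR 4.0.16 and DESeq2 1.42.0 on recovered counts were alternatives, DESeq2 coming within 6.76e-05 of the deposited log2 fold changes. The limma, edgeR and DESeq2 fits with all libraries were run on simulated counts. Each gene was drawn independently there, so differences shared by many genes of 1 library, as for choroid plexus, were not simulated. Positions and exon lengths are from GENCODE M21 (GRCm38), promoters from RefSeq.

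The members and lists were chosen with earlier results of these data known. Values were given in full for each called member, for the member with the smallest p of each class with none called, and for the called genes of the further list; other named genes were chosen after their values were seen. For 1 member, which the counts include, values are not reported here.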

Additional observations from a re-analysis of the deposited data

How the results depend on the processing

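The counts below are of members called higher, members called lower, further pathway genes called higher, further genes called lower, and all genes called. They were 2, 5, 4, 1 and 967 as reported, and stayed within 1.5 times of that with pseudocounts of 0.5 and 5, a filter of 50 normalized counts, TMM scaling and edgeR. Without a filter on low counts they were 1, 3, 2, 0 and 473. DESeq2 and the authors' deposited table called 4 members higher and 3 further genes lower. Adding the Xist-positive library as a term brought all 5 counts to 0, with 12 members and 2145 genes at an unadjusted p under 0.05 in limma. Leaving out 1 library at a time in limma and edgeR gave 0 to 4, 0 to 9, 0 to 7, 0 to 3 and 7 to 1723. Of 407 values of the 24 named genes under the alternatives, 2 changed direction, both of Tgfb3 without WT A (log2 fold change 0.0131 in limma and 0.0126 in edgeR, against -0.15 with all libraries and -0.31 without WT B). The cause of these differences was not tested. No paired analysis was possible because the deposited columns carry no replicate numbers. With 2 libraries a group, changes of low members such as Grem1, Ltbp2 and Chrdl2 had wide intervals.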
